A study of Danio rerio with 24 samples.

Results

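The 7 genes described here encode peptide hormones of the zebrafish pituitary, or subunits of them: prl, gh1, smtla, smtlb, pomca, cga and tshba. They were taken as a named list, all 7 listed symbols were found in the deposited count table, and that table holds 26347 genes in all. The list was drawn up because prl had fallen in wild-type embryos exposed to TCDD, and the question was whether other pituitary cell types shared that fall. The list was thus chosen by the TCDD values of prl, which are given below as a description, with no test.

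The anterior pituitary is a small gland under the brain in which each hormone is made by its own cell type. Lactotropes make prolactin, somatotropes growth hormone, corticotropes and melanotropes the precursor pro-opiomelanocortin, thyrotropes and gonadotropes glycoprotein hormones that share one alpha subunit, and, in fish, somatolactotropes make somatolactin. In the mouse and in zebrafish, lactotropes, somatotropes and thyrotropes depend on the transcription factor Pou1f1, whereas corticotropes do not. Prolactin is known in freshwater fish for promoting ion uptake by skin and gill ionocytes.

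RNA was sequenced from whole zebrafish embryos of the line slincRosu3, which carries a CRISPR-Cas9 mutation in the long intergenic noncoding RNA slincR, and of the wild type (WT). Embryos of each line were exposed to 1 ng/mL TCDD (2,3,7,8-tetrachlorodibenzo-p-dioxin, an agonist of the aryl hydrocarbon receptor) or kept as controls from 6 hours post fertilization (hpf), and were collected at 48 hpf. The 4 groups were slincRosu3 TCDD, slincRosu3 control, WT TCDD and WT control, with 4 libraries each, and the line BigD of the study was not analysed here. The labels do not say whether the replicates came from separate clutches, so p-values measure the spread between these libraries, which may be technical.

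Each library held between 17275522 and 20100736 counts. cyp1a, the standard target of the receptor, lay at 856 to 1930 CPM (counts scaled to library size) in the 8 TCDD libraries and at 2.75 to 5.32 CPM in the 8 control libraries, so the treatment labels held in every library. On the first principal component of all tested genes, which carried 29.8% of the variance, 4 libraries scored highest: WT control 4 (56.19), slincRosu3 control 4 (53.42), WT TCDD 4 (35.49) and WT TCDD 3 (32.71), before WT control 1 at 18.06. Results are given with and without these 4 libraries where they rest on them. Because whole embryos were used, fewer cells of a pituitary type and less RNA per cell cannot be told apart.

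prl, which encodes prolactin, was sparse but present in every library. In slincRosu3 embryos, TCDD libraries 1 to 4 held 2.45, 2.97, 1.90 and 1.66 CPM, against 3.51, 5.11, 3.1 and 7.0 CPM in control libraries. In WT embryos, TCDD libraries 1 to 4 held 1.14, 0.776, 1.93 and 0.997 CPM, against 3.87, 3.14, 2.60 and 4.98 CPM in control libraries. Within each line every TCDD library lay below every control library, but slincRosu3 TCDD 2 lay above WT control 3, so the 8 TCDD and 8 control libraries overlapped. The counts behind these values were small, 30 to 54 in slincRosu3 TCDD and 59 to 121 in slincRosu3 control libraries, and 15 to 36 in WT TCDD and 50 to 80 in WT control libraries.

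The group means of prl were 2.24 ± 0.587 CPM for slincRosu3 TCDD against 4.68 ± 1.77 CPM for slincRosu3 control, and 1.21 ± 0.504 CPM for WT TCDD against 3.65 ± 1.03 CPM for WT control (SD, n = 4 each). The log2 change with TCDD was -1.06 in slincRosu3 (95% interval -1.69 to -0.42, 2.08-fold lower) and -1.58 in WT (-2.26 to -0.91, 3.0-fold lower), and -1.32 when averaged over the lines (-1.78 to -0.86). For reading these values as a description, all 4 TCDD libraries were below all 4 controls in 1.59% of the 20907 tested genes in slincRosu3 and in 1.01% in WT. In WT, where the 2 read files of each sample were also deposited, prl held 6 to 18 counts in TCDD and 25 to 43 in control libraries in the first read file, and 5 to 18 in TCDD and 25 to 37 in control libraries in the second.

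**Figure D1:**
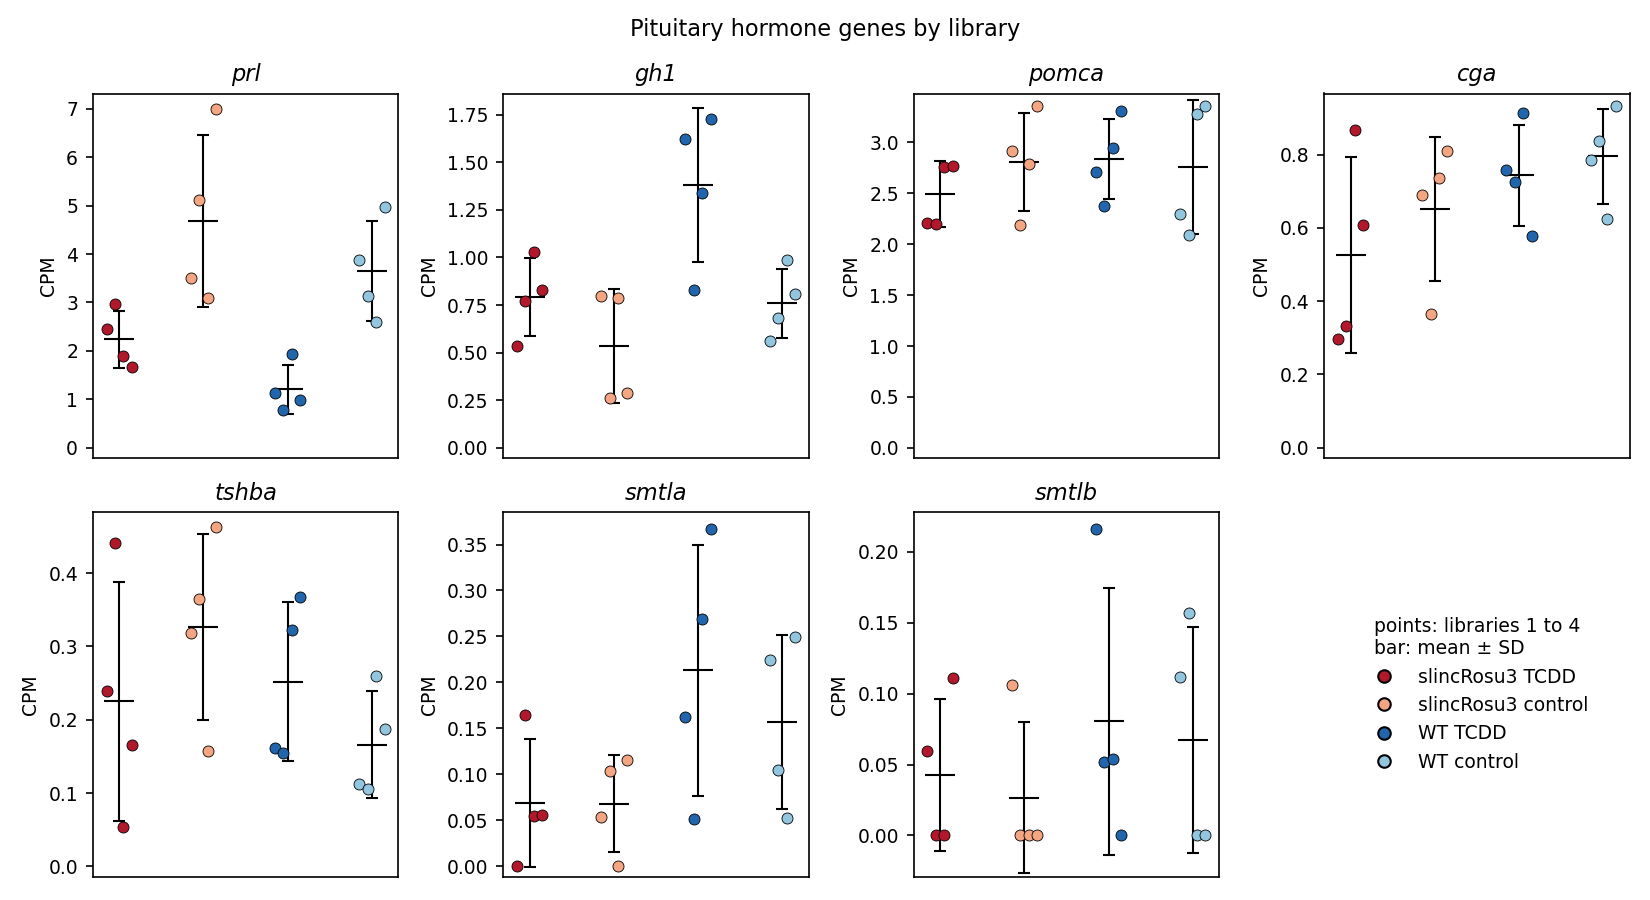
Level of each hormone gene (CPM, linear axis, scaled separately per gene) in the 16 libraries, with the mean and SD of each group. For prl every TCDD library lies below every control library of its line, while the TCDD and control points of the other 6 genes overlap in both lines.

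Between the lines, prl is given by values and intervals alone, because these contrasts contain the libraries whose values chose the list, and they carry no test. Without TCDD, slincRosu3 held 4.68 CPM and WT 3.65 CPM, a log2 difference of 0.36 (95% interval -0.25 to 0.98). With TCDD, slincRosu3 held 2.24 CPM and WT 1.21 CPM, a log2 difference of 0.89 (0.20 to 1.58). The ranges of the lines overlapped in both treatments. The TCDD effect of slincRosu3 minus that of WT was 0.53 (-0.40 to 1.45).

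gh1, the growth hormone of somatotropes, is made in cells that share their transcription factor Pou1f1 with lactotropes. Its TCDD libraries 1 to 4 held 0.537, 0.771, 1.03 and 0.831 CPM in slincRosu3, against 0.798, 0.261, 0.789 and 0.289 CPM in slincRosu3 control. In WT they held 1.62, 0.827, 1.34 and 1.73 CPM, against 0.561, 0.680, 0.988 and 0.809 CPM in WT control. The groups overlapped in both lines, with 3 of the 4 WT TCDD libraries above every WT control library. The log2 change was 0.56 in slincRosu3 (95% interval -0.23 to 1.36, edgeR adjusted p = 0.999), 0.85 in WT (0.13 to 1.58, edgeR adjusted p = 0.538) and 0.71 when averaged (0.17 to 1.25, edgeR adjusted p = 0.396). gh1 was therefore not called. Its intervals in both lines and on average lie wholly above those of prl in the same contrasts. This is a description only, because the prl values chose the list.

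The somatolactin genes smtla and smtlb, whose hormone belongs to the same protein family as prolactin and growth hormone, were close to the limit of detection. smtla held 0, 3, 1 and 1 counts in slincRosu3 TCDD libraries, 1, 2, 0 and 2 in slincRosu3 control, 3, 1, 5 and 7 in WT TCDD, against 4, 2, 1 and 4 for WT control. smtlb held 1, 0, 0 and 2 counts in slincRosu3 TCDD libraries, 2, 0, 0 and 0 in slincRosu3 control, 4, 1, 1 and 0 in WT TCDD, against 2, 3, 0 and 0 for WT control. All groups overlapped. A library without a count allows up to 3 counts, which is 0.16 to 0.18 CPM for smtla and 0.16 to 0.19 CPM for smtlb. In a fit without the filter on low counts, the averaged log2 change with TCDD was 0.25 for smtla (95% interval -0.99 to 1.49, edgeR adjusted p = 0.991) and 0.36 for smtlb (-1.46 to 2.19, edgeR adjusted p = 0.991). The smtlb interval includes the averaged change of prl, so these counts do not exclude a fall of that size. The smtla interval overlaps the averaged interval of prl (-1.78 to -0.86).

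pomca encodes pro-opiomelanocortin, the precursor of adrenocorticotropic hormone and melanocyte-stimulating hormone, and had the narrowest intervals of the 7 genes. Its TCDD libraries held 2.21, 2.20, 2.76 and 2.77 CPM in slincRosu3, against 2.92, 2.19, 2.79 and 3.36 CPM in slincRosu3 control. In WT they held 2.71, 2.38, 2.95 and 3.31 CPM, against 2.30, 2.09, 3.28 and 3.36 CPM in WT control. The groups overlapped in both lines. The log2 change was -0.18 in slincRosu3 (95% interval -0.59 to 0.24, edgeR adjusted p = 0.999), 0.04 in WT (-0.37 to 0.46, edgeR adjusted p = 0.984) and -0.07 when averaged (-0.36 to 0.23, edgeR adjusted p = 0.979). Its sign in WT turned to -0.01 without the 4 libraries named above. The averaged 95% interval reaches down to -0.36, and that in slincRosu3 alone to -0.59.

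The glycoprotein hormone genes gave no call either. cga, the alpha subunit shared by thyroid-stimulating hormone and the gonadotropins, held 0.298, 0.331, 0.867 and 0.609 CPM in slincRosu3 TCDD libraries, against 0.691, 0.365, 0.737 and 0.810 CPM in slincRosu3 control. In WT TCDD libraries it held 0.758, 0.724, 0.913 and 0.577 CPM, against 0.785, 0.837, 0.624 and 0.933 CPM in WT control, and the groups overlapped in both lines. Its log2 change was -0.29 in slincRosu3 (95% interval -1.02 to 0.44, edgeR adjusted p = 0.999), -0.09 in WT (-0.77 to 0.59, edgeR adjusted p = 0.977) and -0.19 when averaged (-0.69 to 0.31, edgeR adjusted p = 0.950). In slincRosu3 the cga interval stops just short of the prl change of -1.06 and overlaps the prl interval (-1.69 to -0.42). The pomca interval there (-0.59 to 0.24) overlaps it too. With 1 library left out, the cga change in slincRosu3 was -0.64 to -0.1.

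tshba, the beta subunit that gives thyroid-stimulating hormone its identity, held 4, 8, 1 and 3 counts in slincRosu3 TCDD libraries and 6, 7, 3 and 8 in slincRosu3 control. It held 3, 3, 6 and 7 counts in WT TCDD libraries and 2, 2, 5 and 3 in WT control, and TCDD and control overlapped in both lines. In the fit without the filter, its log2 change was -0.52 in slincRosu3 (95% interval -1.60 to 0.56), 0.58 in WT (-0.59 to 1.76) and 0.03 when averaged (-0.72 to 0.79, edgeR adjusted p = 1.0). Its interval in slincRosu3 reaches below the change of prl there, as do those of smtla (-1.89) and smtlb (-2.38), and the smtlb interval also does so in WT (-2.05), so within 1 line these genes could not be told from a fall of that size.

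**Figure D2:**
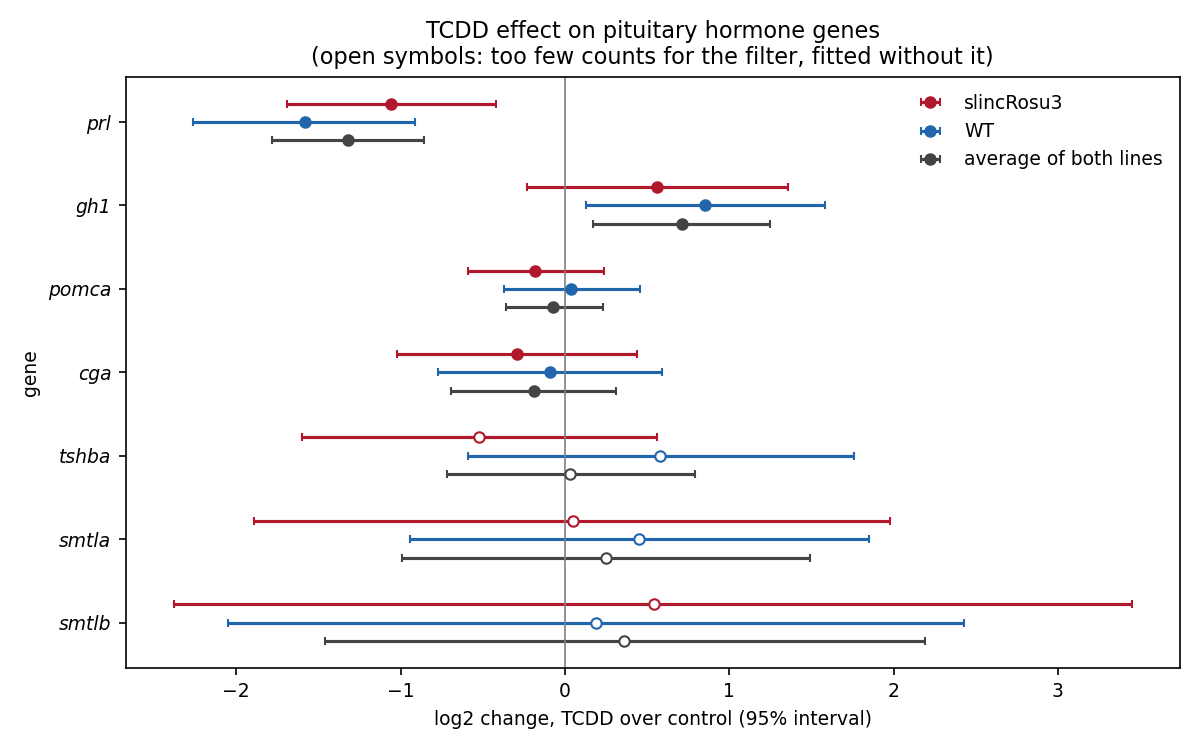
Log2 change of each hormone gene with TCDD over control and its 95% interval, in slincRosu3, in WT and averaged over both lines; open symbols mark genes fitted without the filter on low counts. The averaged intervals of gh1, pomca, cga, tshba and smtla lie above the averaged change of prl at -1.32, whereas that of smtlb reaches -1.46. The averaged interval of prl, whose values chose the list, reaches up to -0.86. That of smtla reaches down to -0.99 and overlaps it.

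Of the 7 genes, 4 passed the filter on low counts (prl, gh1, pomca and cga) and 3 did not. Of gh1, pomca and cga, none was called with TCDD in slincRosu3, in WT or on average, where edgeR called 0.383%, 0.325% and 0.804% of all tested genes. Against the background of falls alone, 0.0287% of tested genes were called lower in slincRosu3, 0.0287% in WT and 0.0813% on average. The absence of a call among 3 genes is thus close to the background. Only prl had TCDD and control libraries without overlap in a line, and its TCDD values chose the list, so this carries no test. In either direction, 4.72% of tested genes showed no overlap in slincRosu3 and 3.05% in WT. The overlap of gh1, pomca and cga is thus close to the background. None of these 3 genes was called between the lines, where 1.54% of tested genes were called without TCDD and 1.86% with TCDD. With all 16 libraries, no gene at all was called for the difference of the TCDD effects by edgeR or by DESeq2. Of the 20907 genes tested with edgeR, 899 had an unadjusted p under 0.05 for this difference, and DESeq2 gave 964 such genes. A share of 0.05 of the tested genes would pass if no gene differed. The edgeR count with all 16 libraries lies below that share. With a replicate block the edgeR count was 1321, with 0 genes called. Without the 4 high-scoring libraries it was 3600, with 20 genes called. The count thus depends on the model and the libraries fitted, and no conclusion is drawn from it.

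The ratio of prl to another hormone gene within a library does not depend on the library's scaling. In WT the ratio of prl to pomca counts was 0.420, 0.326, 0.655 and 0.302 in TCDD libraries, against 1.68, 1.5, 0.794 and 1.48 in control libraries. The ratio of prl to cga was 1.5, 1.07, 2.12 and 1.73 in WT TCDD libraries, against 4.93, 3.75, 4.17 and 5.33 in WT control libraries. The ratio of prl to gh1 was 0.576 to 1.44 in WT TCDD and 2.63 to 6.90 in WT control libraries. For all 3 ratios the WT groups did not overlap. In slincRosu3 they did: prl to pomca spanned 0.600 to 1.35 with TCDD and 1.11 to 2.33 in control, prl to cga 2.19 to 9.0 with TCDD and 4.21 to 14 in control, and prl to gh1 1.84 to 4.56 with TCDD and 3.93 to 24.2 in control. These ratios contain the prl values that chose the list and carry no test.

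**Figure D3:**
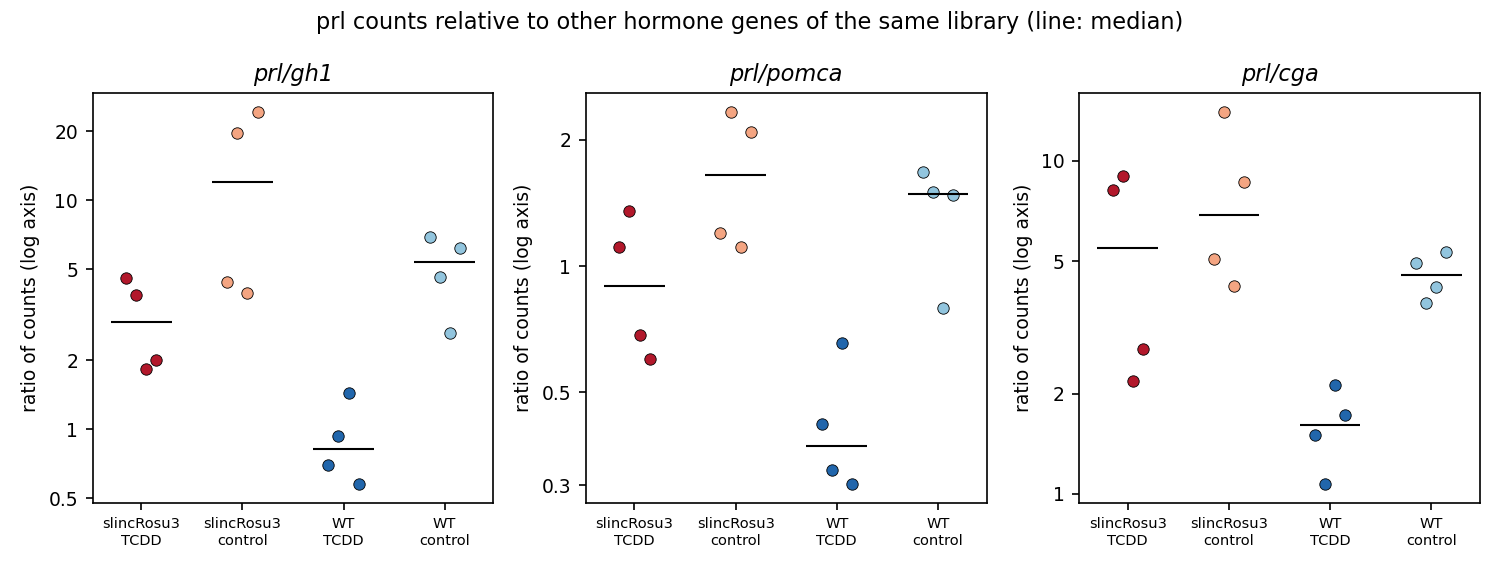
Ratio of prl counts to gh1, pomca and cga counts in each library (log axes), with the median of each group. The WT TCDD libraries lie below all WT control libraries in the 3 panels, and the slincRosu3 TCDD and slincRosu3 control libraries overlap in each.

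As a share of the counts of all 7 genes, prl took 26.8% to 43.2% in slincRosu3 TCDD libraries and 41.0% to 60.9% in slincRosu3 control, and 13.6% to 24.8% in WT TCDD libraries and 33.3% to 48.6% in WT control. The summed level of the other 6 genes was 4.14 ± 0.645 CPM in slincRosu3 TCDD and 4.42 ± 0.795 CPM in slincRosu3 control. It was 5.50 ± 0.927 CPM in WT TCDD and 4.70 ± 0.788 CPM in WT control (SD, n = 4 each). The summed levels overlapped between treatments in both lines, whereas the prl share overlapped in slincRosu3 and not in WT.

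Pearson's r between prl and each other gene was computed over the 16 libraries, on log2 CPM with the group means removed (6 relations, 100000 within-group permutations, two-sided). It was highest for smtla, at r = 0.675 (Spearman's rho = 0.674, permutation p = 0.014 for r and 0.0117 for rho, adjusted p = 0.084 and 0.0702). Without slincRosu3 control 4 and WT TCDD 3, the 2 libraries farthest out in prl, r was 0.68, and it was 0.721 without the 4 high-scoring libraries. It rests on 0 to 7 smtla counts a library. The relation with tshba, also of few counts, had r = 0.53 (rho = 0.488, permutation p = 0.0507 and 0.0863, adjusted p = 0.152 and 0.259; r = 0.438 without those 2 libraries), and that with gh1 had r = -0.411 (rho = -0.424, permutation p = 0.202 and 0.176, adjusted p = 0.404 and 0.352; r = -0.347 without them). pomca gave r = 0.0627 (rho = 0.0206, permutation p = 0.834 and 0.949, adjusted p = 0.877 and 0.949), which turned to -0.227 without those 2 libraries and to -0.662 without the 4. cga gave r = -0.0453 (rho = 0.05, permutation p = 0.877 and 0.87, adjusted p = 0.877 and 0.949), which was -0.435 and -0.624 without them. smtlb gave r = -0.19 (rho = -0.0739, permutation p = 0.524 and 0.815, adjusted p = 0.786 and 0.949; r = -0.134 without the 2). No relation passed after adjustment over the 6.

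**Figure D4:**
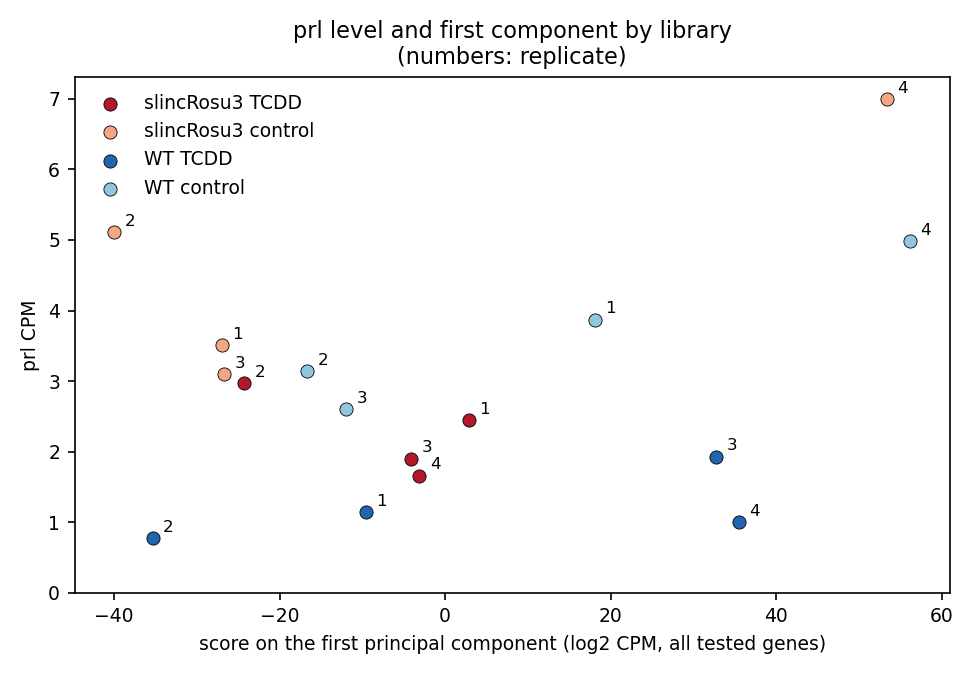
Level of prl (CPM) against the score on the first principal component for each of the 16 libraries, labelled by replicate. Of the 4 libraries with the highest scores, slincRosu3 control 4 (7.0 CPM), WT control 4 (4.98 CPM) and WT TCDD 3 (1.93 CPM) hold the highest prl of their own groups, and WT TCDD 4 (0.997 CPM) does not.

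As the plot of prl against the component shows, 3 of those 4 libraries hold the highest prl value of their group, and their part in the prl values was not tested beyond leaving them out. Without them the log2 change of prl with TCDD was -0.80 in slincRosu3, -1.73 in WT and -1.27 when averaged. The difference between the lines with TCDD became 1.22 and the difference of the TCDD effects 0.93, both given with no test.

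Likeness to the library-to-library pattern of prl was ranked by Pearson's r of group-centred log2 CPM over the 16 libraries. This covered 18433 tested genes of at least 1 CPM on average, and clone and locus names were then passed over. The genes most like prl were psmg2 (0.888), fdps (0.884), mob1a (0.872), meis3 (0.869), jam2b (0.865), wnt2bb (0.861), ldlrad2 (0.852), aprt (0.851), enc3 (0.850) and tspan7 (0.847). As the highest of so many, these r values carry no test. psmg2 encodes a proteasome assembly chaperone, fdps farnesyl diphosphate synthase, and wnt2bb a Wnt ligand. All were read in the same libraries as prl, and none was called with TCDD in either line: their log2 changes ran from -0.24 to 0.11 in WT and from -0.13 to 0.26 in slincRosu3.

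The other genes of pituitary cells were read from lists of known genes. With TCDD, edgeR called 0.383% of all tested genes in slincRosu3, 0.325% in WT and 0.804% on average. The absence of a call in a list, here and below, is thus close to the background. Among 33 listed pituitary transcription factor genes, 28 were tested and none was called with TCDD in slincRosu3, in WT or on average. An unadjusted edgeR p under 0.05 was found for 0, 6 and 6 of the 28, against 1016, 1676 and 1614 of all 20907 tested genes. The median log2 change was -0.02, 0.09 and 0.05, against -0.01, 0.01 and 0 over all genes. pou1f1, the factor that lactotropes, somatotropes and thyrotropes need, is singled out here for its role and with its values known. It averaged 0.617 ± 0.0514 CPM in slincRosu3 TCDD and 0.570 ± 0.177 CPM in slincRosu3 control, and 0.701 ± 0.147 CPM in WT TCDD and 0.710 ± 0.199 CPM in WT control (SD, n = 4 each). Its averaged log2 change was 0.05 (95% interval -0.38 to 0.49, edgeR adjusted p = 0.991). LHX3 and pitx3, early markers of the pituitary placode, were chosen in the same way and had averaged log2 changes of 0.20 (-0.10 to 0.49, edgeR adjusted p = 0.861) and 0.19 (-0.01 to 0.40, edgeR adjusted p = 0.715). LHX3 and pitx3 are also expressed outside the pituitary in the embryo. tbx19, which marks pomca cells and was also chosen for its role, had too few counts to be tested: 12 for slincRosu3 TCDD against 17 for slincRosu3 control, and 13 for WT TCDD against 19 for WT control.

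Remaining hormone genes, named here for their roles and with their values known, were likewise scarce. pomcb, the second pro-opiomelanocortin gene, had a log2 change of 1.03 in slincRosu3 (95% interval 0.32 to 1.73, edgeR adjusted p = 0.479) and -0.03 in WT (-0.73 to 0.68, edgeR adjusted p = 0.995). The second prolactin gene prl2 summed to 26 counts in slincRosu3 TCDD and 22 in slincRosu3 control, and to 14 in WT TCDD and 16 in WT control. fshb, the beta subunit of follicle-stimulating hormone, summed to 6 and 11 counts in those slincRosu3 groups and to 2 and 15 in those of WT. Its sums were thus lower with TCDD in both lines. In WT it held 2, 0, 0 and 0 counts in TCDD libraries and 2, 6, 1 and 6 in control libraries. TCDD and control libraries overlapped in both lines. prl2 and fshb were below the filter and had no test in the main fit. Their changes in the fit without the filter are not given here, so whether fshb shared the fall of prl is not decided. Of the 15 tested genes for hormone processing and secretory granules, none was called with TCDD in slincRosu3, in WT or on average, and their median log2 change was -0.02 in slincRosu3, 0.12 in WT and 0.06 on average. Brain and endocrine cells outside the pituitary use most of these genes too.

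The hypothalamus regulates the pituitary through releasing and inhibiting factors, of which dopamine inhibits prolactin release in vertebrates. Of the 43 tested hypothalamic regulator and receptor genes, none was called with TCDD in slincRosu3, in WT or on average. th, the enzyme that limits dopamine synthesis, was singled out for that role and had an averaged log2 change of 0.16 (95% interval -0.14 to 0.46, edgeR adjusted p = 0.911). Between the lines with TCDD, 1 of these 43 genes was called, oxt, which encodes the fish oxytocin; that share is close to the 1.86% called among all tested genes. It held 0.776, 0.716, 1.41 and 1.22 CPM in slincRosu3 TCDD libraries and 2.11, 2.69, 1.72 and 2.89 CPM in WT TCDD libraries, with no overlap, and its log2 difference was -1.18 (-1.80 to -0.57, edgeR adjusted p = 0.0456). The call of oxt ended without any one of slincRosu3 TCDD 1, 2 and 4 and WT TCDD 1, 2 and 4, with log2 differences of -1.27 to -1.04, without the 4 libraries named above (-1.22, edgeR adjusted p = 0.0788), and when only the groups compared were fitted (-1.18, edgeR adjusted p = 0.0561).

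Downstream of prolactin, 38 ionocyte genes were tested, a list that holds prolactin targets among other genes. None was called with TCDD in slincRosu3, in WT or on average, where 0.383%, 0.325% and 0.804% of all tested genes were. The median log2 change was 0.03, 0.04 and 0.01, and 18 of the 38 averaged changes were negative. These values of the whole list do not describe the prolactin targets alone. slc12a10.2, the sodium-chloride cotransporter gene of the ionocytes that prolactin is known to promote in zebrafish, was singled out for that role with its values known. It averaged 6.97 ± 1.18 CPM in slincRosu3 TCDD and 9.55 ± 0.605 CPM in slincRosu3 control, and 3.85 ± 1.42 CPM in WT TCDD and 6.56 ± 1.76 CPM in WT control (SD, n = 4 each). Its log2 change was -0.45 in slincRosu3 (95% interval -0.93 to 0.02, edgeR adjusted p = 0.999), -0.77 in WT (-1.26 to -0.27, edgeR adjusted p = 0.341) and -0.61 on average (-0.95 to -0.27, edgeR adjusted p = 0.129), so it did not pass the test. clcn2c, of the same list and also named with its values known, averaged 3.06 ± 0.785 CPM in slincRosu3 TCDD and 5.15 ± 1.32 CPM in slincRosu3 control. In WT it averaged 2.8 ± 0.693 CPM with TCDD and 5.19 ± 3.06 CPM in control, where WT control 4 held 9.77 CPM. Its TCDD and control libraries overlapped in WT and not in slincRosu3, and it was not called with TCDD. prlra, a prolactin receptor gene chosen in the same way, had an averaged log2 change of -0.12 (-0.39 to 0.16, edgeR adjusted p = 0.935), and none of the 13 tested hormone receptor and signalling genes was called with TCDD.

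Between the lines, 1 of the 38 ionocyte genes was called with TCDD, where 1.86% of all tested genes were, and 1 without TCDD, where 1.54% were, so both shares are close to the background. slc12a10.3, a tandem relative of the cotransporter gene, held 3.64, 2.53, 3.14 and 2.88 CPM in slincRosu3 TCDD libraries and 1.30, 1.24, 1.24 and 1.26 CPM in WT TCDD libraries, with no overlap, a log2 difference of 1.27 (edgeR adjusted p = 0.00296). Reads of such neighbouring copies can be split in counting, which makes their levels uncertain. atp1a1a.2, a sodium pump subunit, held 67.9, 71.9, 56.0 and 76.1 CPM in slincRosu3 control libraries and 110.0, 92.9, 74.9 and 104.0 CPM in WT control libraries, which overlapped. Its log2 difference was -0.49 (edgeR adjusted p = 0.0364), a call that ended without any one of slincRosu3 control 1, 2 and 3 or WT control 1, 2 and 4 (log2 differences of -0.52 to -0.41), and when only the groups compared were fitted (-0.49, edgeR adjusted p = 0.185).

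The target glands of the other hormones were read in the same way. None of the 14 tested genes of the growth hormone axis was called with TCDD in slincRosu3, in WT or on average, with medians of 0.06, 0.13 and 0.13, and igf1, the growth factor that growth hormone induces and again chosen for its role, had an averaged log2 change of 0.38 (95% interval -0.22 to 0.97, edgeR adjusted p = 0.877). None of the 18 tested thyroid genes was called, with medians of -0.07 in slincRosu3, 0.04 in WT and -0.06 on average. Of 19 tested interrenal steroid and glucocorticoid response genes, 1 was called with TCDD, pck1, on average over the lines, where 0.804% of all tested genes were called, while its adjusted p from edgeR was 0.0721 in slincRosu3 and 0.603 in WT.

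pck1, an enzyme of glucose synthesis that glucocorticoids induce in many tissues, held 100.0, 106.0, 153.0 and 121.0 CPM in slincRosu3 TCDD libraries and 42.7, 33.6, 43.8 and 59.3 CPM in slincRosu3 control. It held 97.7, 105.0, 76.8 and 85.7 CPM in WT TCDD libraries and 20.6, 54.3, 44.4 and 105.0 CPM in WT control, so the groups overlapped in WT through WT control 4 and not in slincRosu3. Its averaged log2 change was 1.06 (95% interval 0.59 to 1.54, edgeR adjusted p = 0.0311). The call ended without any one of 9 of the 16 libraries, namely slincRosu3 TCDD 3 and 4, slincRosu3 control 1, 2 and 3, WT TCDD 1 and 2 and WT control 2 and 3. Without the 4 high-scoring libraries the change was 1.46. hsd3b2, a steroid enzyme and the one gene of this list called between the lines without TCDD, where 1.54% of all tested genes were, was lower in slincRosu3 control (0.364 ± 0.180 CPM) than in WT control (1.28 ± 0.373 CPM; SD, n = 4 each), with a log2 difference of -1.80 (edgeR adjusted p = 0.0491). That call ended without any one of slincRosu3 control 1 to 4 or WT control 1, 2 and 4 (log2 differences of -2.02 to -1.49), and without the 4 high-scoring libraries (-1.74, edgeR adjusted p = 0.0733). It also ended when only the groups compared were fitted (-1.79, edgeR adjusted p = 0.0938) and with a replicate block (-1.80, edgeR adjusted p = 0.0561).

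**Figure D5:**
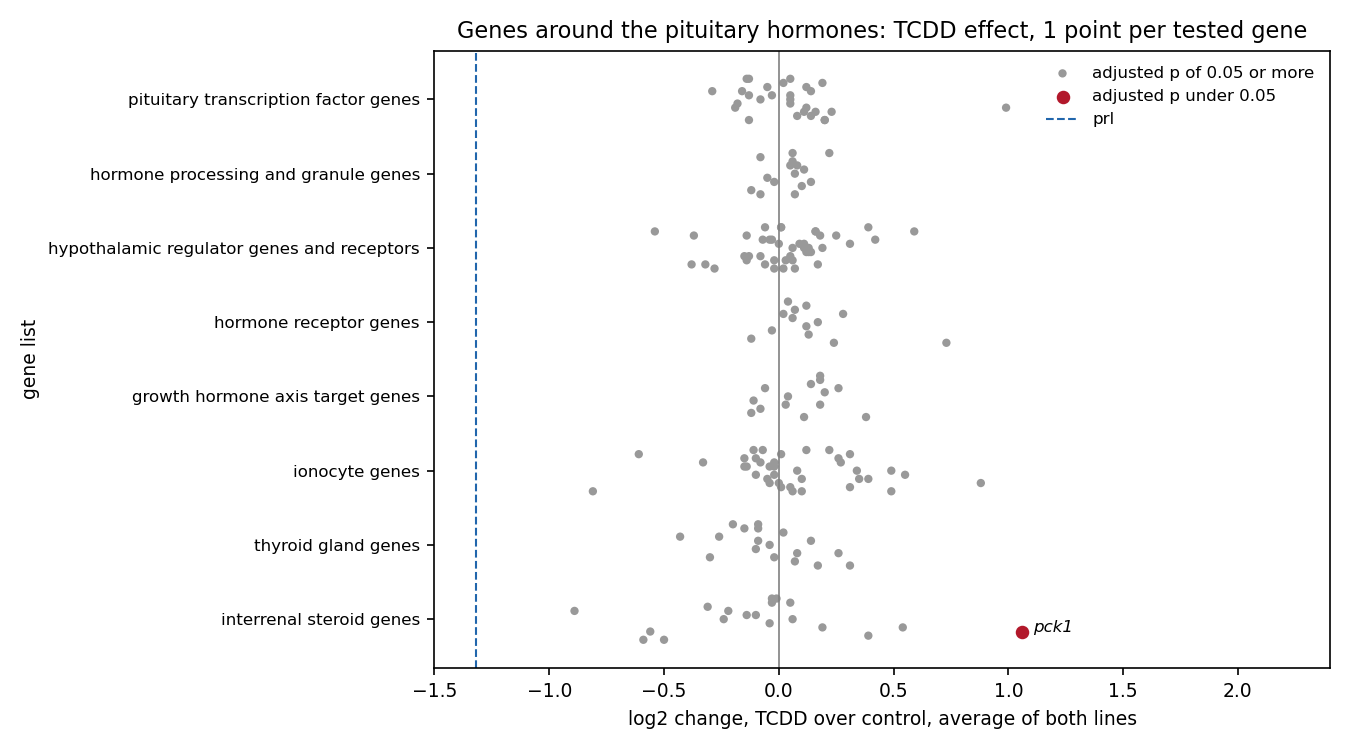
Log2 change with TCDD, averaged over both lines, of each tested gene in 8 lists around the pituitary hormones; the dashed line marks prl at -1.32 and the labelled point is pck1 at 1.06, the one gene with an adjusted p under 0.05. No tested gene of these lists lies as low as prl, which was picked for its fall with TCDD, so its place here carries no test.

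Lists of other cells and states were read beside these results. Of the 19 tested cell cycle genes none was called with TCDD, where 0.383% of all tested genes were called in slincRosu3, 0.325% in WT and 0.804% on average. However, 18 had negative log2 changes in slincRosu3 (median -0.20), 19 in WT (median -0.35) and 18 on average (median -0.27). An unadjusted edgeR p under 0.05 was found for 0, 6 and 11 of them in slincRosu3, in WT and on average, against 1016, 1676 and 1614 of the 20907 tested genes. The gene read for rrm2 carries the symbol rrm2b. The summed level of the list was 1340 to 1750 CPM in slincRosu3 TCDD and 1460 to 2210 CPM in slincRosu3 control, and 1450 to 1990 CPM in WT TCDD and 1750 to 3070 CPM in WT control. The 18 tested brain neuron genes summed to 2820 to 3270 CPM in slincRosu3 TCDD and 3060 to 3340 CPM in slincRosu3 control, and to 3150 to 3250 CPM in WT TCDD and 2770 to 3210 CPM in WT control. The 21 tested photoreceptor genes, which come on late in eye development, had median log2 changes of -0.31 in slincRosu3 and 0.47 in WT. The 24 photoreceptor genes in the table summed to 206 to 367 CPM in slincRosu3 TCDD and 243 to 382 CPM in slincRosu3 control, and to 330 to 398 CPM in WT TCDD and 150 to 376 CPM in WT control. The 18 tested lens crystallin genes had medians of -0.17 in slincRosu3 and 0.03 in WT. None of the genes of these 4 lists was called with TCDD in either line, and the part of these shifts in the prl values was not tested.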

How the data were processed

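RNA of 16 whole-embryo samples was analysed, grouped by their labels. The authors deposited raw counts per Ensembl gene, in which the counts of both read files of a sample were summed, so that a fragment can count more than once, per the file headers. In 1 column the authors' deposited values are estimated counts by their form, with 1 value that was not whole, and it was rounded. HISAT2, STAR, DESeq2 and the build GRCz11 are named in the submitters' processing notes; no source used here gives their versions, the counting program or the strand setting. Another 70 per-sample columns were not used. In the WT libraries 39.79% to 43.16% of reads were assigned to a gene. Symbols came from the authors' tables (21149 genes) and a gene name table (3623 genes).

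Counts were fitted with edgeR 4.0.16 in R 4.3.3: TMM scaling, filterByExpr by group (20907 genes), one quasi-likelihood fit of all 4 groups (12 residual degrees of freedom) and Benjamini-Hochberg adjustment over all tested genes, with a threshold of 0.05. Intervals of 95% come from the standard error and the test's degrees of freedom. CPM use effective library sizes, and log2 CPM a prior count of 2. The code was tested on simulated data. Floors of 3 counts cover counting error only. DESeq2 1.42.0, other scaling, filters, groups, a replicate block, left-out libraries and single read files were tried as alternatives, the last chosen after seeing the data.

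The members and lists were chosen with earlier results of these data known. Named were all members, list genes past the threshold and the 10 genes most like prl; others were chosen for their roles with their values known and are marked where they appear. No hormone sequences or coordinates were used here.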

Additional observations from a re-analysis of the deposited data

Results flagged for a closer look

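In smtlb, one slincRosu3 control library (replicate 1) stood apart from the other 3 at 0.106 CPM, which is 2 counts against 0, 0 and 0. It was the one such case among the 28 gene-by-group sets of 4 libraries examined. For normally spread values chance marks about 1 set in 20, a rate that need not hold for sets of so few counts.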

How the results depend on the processing

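The log2 change of prl with TCDD was negative in slincRosu3, in WT and on average under every alternative run; as these values chose the list, they are given with no test. In WT it was -1.60 when only the groups compared were fitted, -1.55 with a replicate block, and -1.73 and -1.44 with the WT libraries alone and read file 1 and 2. Leaving out 1 library gave -1.22 to -0.80 in slincRosu3, -1.90 to -1.40 in WT and -1.48 to -1.19 on average. The replicate numbers were not taken to pair the samples, and the correlations between libraries do not settle whether they do. The lowest same-numbered correlation was -0.151 between slincRosu3 TCDD and slincRosu3 control, -0.276 between WT TCDD and WT control, -0.19 between the control groups and -0.0887 between the TCDD groups. Only slincRosu3 TCDD and WT control, which were not compared, had same-numbered correlations that all exceeded 0.1 (0.125 to 0.421). In no pair of groups did every library correlate best with its own number. Libraries 2, 3 and 4 of slincRosu3 TCDD did so with slincRosu3 control (0.496, 0.163 and 0.132) and with WT control (0.421, 0.231 and 0.144). Libraries 2, 3 and 4 of slincRosu3 control did so with WT control (0.513, 0.409 and 0.676). Of WT TCDD, libraries 2 and 4 did so with WT control (0.462 and 0.249). Whether same-numbered libraries shared a batch was not tested, and the main fit holds no replicate term. With the block 80 genes were called in WT.

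The pomca change in WT was -0.01 without the 4 high-scoring libraries (WT control 4, slincRosu3 control 4, WT TCDD 3 and 4) and -0.01 with read file 1, and -0.07 to 0.14 with 1 library left out; its line difference without TCDD was -0.08 to 0.13, and the cga change in WT -0.21 to 0.01. The cause of these turns was not tested. Genes called for TCDD in WT numbered 147 with DESeq2, 26 with only the groups compared, 327 without the 4 libraries, 21 and 23 with read file 1 and 2, and 46 to 76 with 1 library left out. For TCDD in slincRosu3 they numbered 157 with DESeq2, 170 without the 4 and 46 to 82, and on average 266, 486 and 112 to 201. For the lines without TCDD they numbered 499 with DESeq2, 149 with only the groups compared, 604 without the 4 and 176 to 328, and with TCDD 674, 697 without the 4 and 175 to 315. For the difference of the effects there were 20 without the 4 and 0 with 1 library left out. The correlation of prl with pomca was -0.662 and with smtlb 0.0758 without the 4; with 1 library left out it was -0.126 to 0.202 for pomca, -0.201 to 0.0771 for cga, -0.329 to -0.0842 for smtlb, -0.687 to -0.277 for gh1, 0.444 to 0.689 for tshba and 0.607 to 0.803 for smtla, where it passed in 2 cases. DESeq2 size factors and the missing filter left gh1, pomca and cga on their side of the threshold. Depth limits tshba, smtla and smtlb, with 0 to 8 counts a library.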
